A study of Mus musculus with 12 samples.

Results

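The genes described here encode the proteins of the cytosolic ribosome. They were taken from the count table by symbol, as the small subunit genes (Rps and Rpsa) and the large subunit genes (Rpl and Rplp), with Rpl29, Rps2 and Rps18 left out by the rule. The rule gave 79 of the 12339 genes in the table, 31 of the small and 48 of the large subunit. No measured value entered the choice.

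The cytosolic ribosome is built from ribosomal RNA and one copy each of most of its proteins, so the genes of both subunits are usually expressed together. Many of their messenger RNAs start with a C followed by a run of pyrimidines, the terminal oligopyrimidine (TOP) tract, through which the mTOR kinase pathway controls their translation. Macrophages change ribosome production when they grow or are activated. The family is also known for its many processed pseudogenes, intron-free genomic copies that share long stretches of sequence with the parent gene.

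RNA came from peritoneal macrophages of wild-type (WT) mice and of mice labelled meKO. The series title names protein kinase C epsilon, encoded by Prkce, in myeloid cells, and meKO was read as its deletion in myeloid cells; neither the recombinase line nor the deleted exons are given in the labels. All mice, controls included, received AAV8PCSK9 at 8 weeks of age, a virus given to remove the LDL receptor from hepatocytes. They then stayed on chow or were fed a high-fat ("Western") diet (HFD), and 4 weeks later macrophages were drawn into the peritoneum with sterile thioglycolate and washed out. Each genotype thus had a chow group and an HFD group, with 3 libraries in every group. The labels do not say how many mice gave each library, so the p-values measure the spread between these libraries.

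Total counts ran from 25844958 to 37282772 per library. Values below are CPM, counts scaled to the size of the library, after TMM, a correction for library composition. Prkce was listed at 2.01 to 4.44 CPM in the 6 WT libraries and at 0.950 to 1.78 CPM in the 6 meKO libraries, without overlap. The macrophage markers Cd68 (2538 to 3658 CPM), Adgre1 (513 to 697 CPM) and Csf1r (473 to 844 CPM) were high in every library. Summed over the list of 7 macrophage markers, the level was 35856 to 59220 CPM in the WT libraries, 5521 to 27238 CPM in meKO chow and 21846 to 23760 CPM in meKO HFD. Lyz2, which encodes lysozyme, set the height of this sum. It was at 30482 to 53835 CPM in WT, at 16293 to 21309 CPM in 5 meKO libraries and at 69.3 CPM in meKO chow replicate 2, which stood apart from every other library. Averaged over genotypes, Adgre1, Csf1r, Itgam and Mertk were lower on HFD and Fcgr1 higher by edgeR, from -0.52 (Mertk) to 0.49 (Fcgr1) on the log2 scale. By the same rule 14.9% of all genes rose and 15.3% fell. With the transcript length and GC correction described below, Mertk (-0.36) and Fcgr1 (0.52) still passed, and Adgre1, Csf1r and Itgam did not. The part of these markers in the diet differences of the ribosomal protein genes was not tested. In a bulk sample, fewer cells of a type and less RNA per cell cannot be told apart.

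Start sites are shown first, because the TOP tract is the feature that the family is best known to share. Sequences come from the RefSeq promoter table for GRCm38.p6, which held 58 of the 79 genes. Each window runs from 10 bases before the annotated start to 18 bases from it on the gene's strand. Capitals mark a tract, taken as a C within 5 bases of the annotated start that is followed by at least 5 bases that are C or T. The pyrimidine run can reach further upstream than the capitals. For genes with several annotated starts (9 members and 1906 listed genes), the start with the longest tract was used. The 10 windows cover members with small p-values below (Rpl22l1, Rps27l, Rpl41, Rpl27, Rpl35a and Rpl34) and the parents of the first 2. Rps6 and Rpl35 were added as further examples of a tract.
Rpl22l1, chr3:28805498-28805525, plus strand: gcgcaagcccgttCTCTTCCCacggctg
Rpl22, chr4:152325716-152325743, plus strand: cctgggaaaagcaatagctggccgatcg
Rps27l, chr9:66946076-66946103, plus strand: cctccccgccgcctctatcccggaagtt
Rps27, chr3:90213631-90213658, minus strand: cgctttcgCTCCTTTCCggcggtgacga
Rpl41, chr10:128549151-128549178, minus strand: gggccggctcggaagtgacgacaccgag
Rpl27, chr11:101442235-101442262, plus strand: ctgttcctgtctgctgctcgtgctgcta
Rpl35a, chr16:33056472-33056499, plus strand: gcttgCCTTCCTCTTTCCgccatcttgg
Rpl34, chr3:130730320-130730347, minus strand: cttttCCTCTTCCggggacggtgctcag
Rps6, chr4:86857350-86857377, minus strand: gaagtcgggCCTCTTTTTCgtgacgcct
Rpl35, chr2:39005114-39005141, minus strand: ccgccCTTTCCTCTTTCTCTCgaaccag

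A tract was found in 25 of the 58 members (43.1%), against 1217 of the 9379 listed genes that the promoter table held (13.0%) and 11.9% of all 27025 genes in it. A C at the annotated start base itself, followed by at least 4 pyrimidines and also where it lay inside a longer run, was found in 13 members (22.4%) and in 3.0% of the listed genes. The search covered the gene's strand alone, and windows without a match say only that these letters were not near the annotated start. In the pair Rpl22l1 and Rpl22 the window of the paralog held a tract and that of the parent did not, while in the pair Rps27l and Rps27 it was the parent's window that held one.

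The family as a whole stood at different heights in libraries of the same group. The median of the 79 members, as log2 CPM minus each gene's mean over the 12 libraries, was -0.49, -0.59 and 0.12 in WT chow replicates 1, 2 and 3, and 0.20, 0.13 and 0.23 in WT HFD. In meKO chow it was -0.00, -0.05 and -0.22, and in meKO HFD it was 0.08, 0.60 and 0.04. WT chow replicates 1 and 2 were thus the lowest libraries and meKO HFD replicate 2 the highest, and WT chow replicate 3 lay close to the WT HFD libraries. In WT chow replicate 1, 0 of the 79 members were above their own mean, against 70 in WT chow replicate 3. Members took 0.847% ± 0.174 of all counts in WT chow (SD, n = 3), 1.08% ± 0.0539 in WT HFD, 0.923% ± 0.0605 in meKO chow and 1.10% ± 0.186 in meKO HFD.

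Transcript length moved with these heights. The members are short, with a median transcript of 709 bases against 2567 over all genes, and a GC content of 51.7% against 50.5%. Across all genes, the Spearman correlation of a gene's deviation with its transcript length was 0.61 and 0.64 in WT chow replicates 1 and 2, where short transcripts were therefore low, and -0.05 in WT chow replicate 3. It ran from -0.44 to -0.11 in WT HFD, from -0.18 to 0.14 in meKO chow and from -0.46 to -0.12 in meKO HFD; genes of a library share its depth and scaling. After each library's smooth trend on length and GC was removed, the member medians in WT chow became -0.06, -0.13 and 0.13, and in meKO HFD replicate 2 it became 0.21. A length and GC trend and a change of short genes such as these cannot be told apart from this correction alone.

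**Figure D1:**
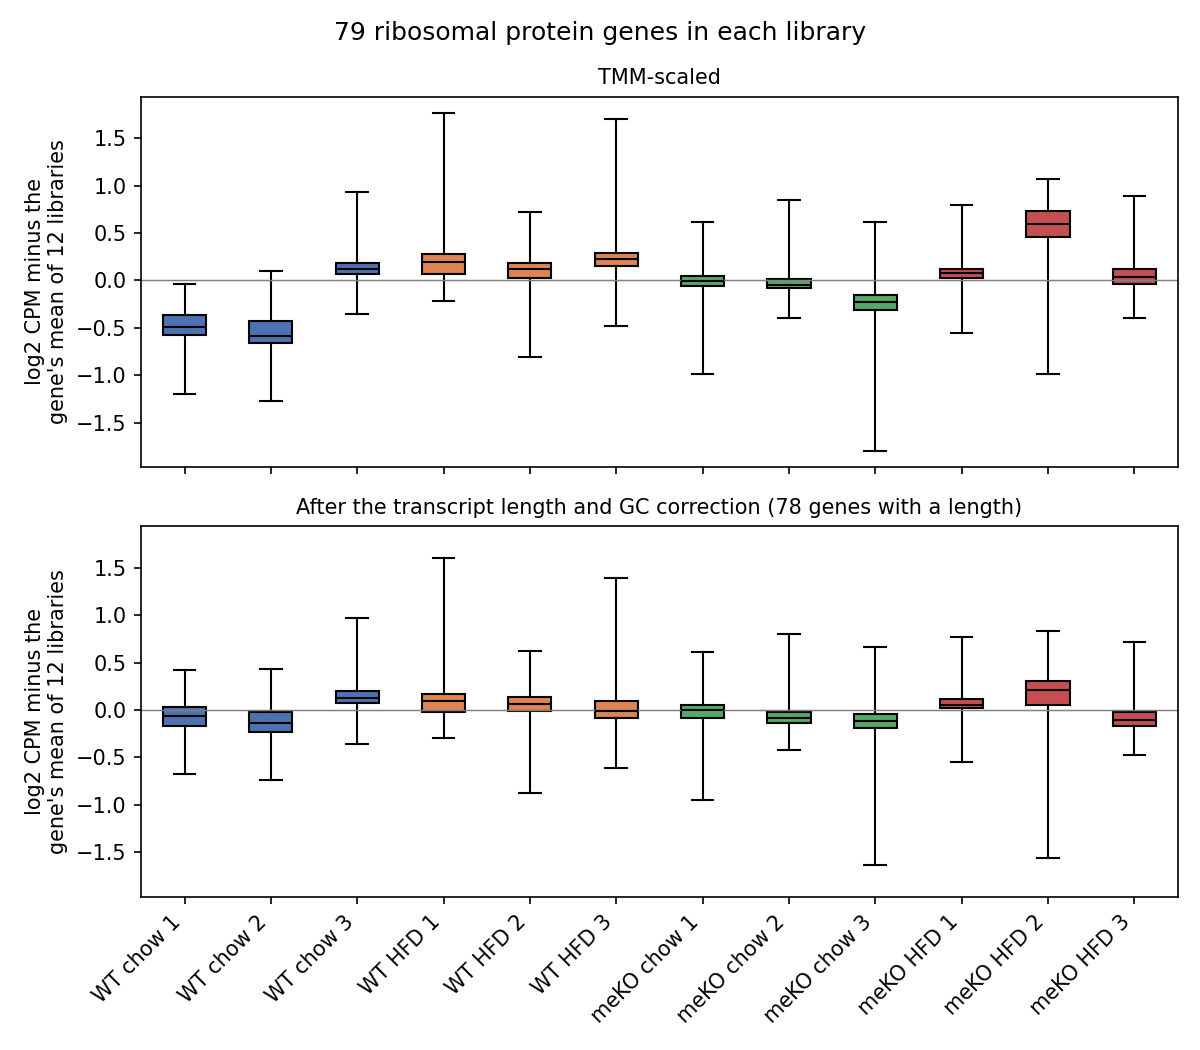
Deviation of each ribosomal protein gene from its own mean over the 12 libraries (log2 CPM), for each library, before (upper panel, 79 genes) and after (lower panel, 78 genes with a transcript length) the length and GC correction. Boxes span the quartiles with the median as a line, whiskers reach the lowest and highest gene, and colours mark the 4 groups; before the correction the medians ran from -0.59 in WT chow replicate 2 to 0.60 in meKO HFD replicate 2.

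The first comparison was between diets in WT mice. By edgeR, 11 of the 79 ribosomal protein genes rose on HFD and 0 fell at an adjusted p under 0.05 (quasi-likelihood test, Benjamini-Hochberg over all genes), 7 of the small and 4 of the large subunit. Of all genes tested, 9.5% rose and 11.8% fell by the same rule, so the members' share of 13.9% was near the background. The median log2 fold change of the members was 0.47, against -0.03 over all genes, and 76 of 79 were above 0. At an unadjusted p under 0.05 there were 46 members, against 39.4% of all genes. In 30 members the lowest WT HFD library was above the highest WT chow library, which held for 19.4% of all genes.

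Rpl22l1, the paralog of Rpl22, had the smallest p. It was at 12.6, 13.7 and 19.4 CPM in WT chow and at 28.5, 26.9 and 26.0 CPM in WT HFD, which is 0.84 ± 0.19 as a log2 fold change with its SE (edgeR adjusted p = 0.0176). No WT HFD library overlapped the WT chow range. Rps27l, a paralog of Rps27 known as a p53 target, was at 47.3, 49.4 and 72.2 CPM in WT chow and at 101, 92.6 and 118 CPM in WT HFD (0.88 ± 0.23, edgeR adjusted p = 0.0223). The 2 low WT chow libraries and the gap above them were the same as for Rpl22l1.

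Rpl41, which encodes a very short basic peptide of the large subunit, was at 367, 377 and 538 CPM in WT chow and at 703, 638 and 702 CPM in WT HFD (0.67 ± 0.19, edgeR adjusted p = 0.0269). Rpl27, another large subunit gene, was far less abundant, at 2.91, 3.27 and 4.00 CPM in WT chow and 5.76, 4.99 and 5.87 CPM in WT HFD (0.71 ± 0.20, edgeR adjusted p = 0.0284). Groups did not overlap for either gene. Rpl8, Rps14, Rps25, Rps3, Rps26 and Rps24 were also among the genes that rose, with log2 fold changes from 0.47 (Rps3, a protein at the messenger RNA entry channel) to 0.66 (Rps24) and edgeR adjusted p from 0.0333 to 0.0494.

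**Figure D2:**
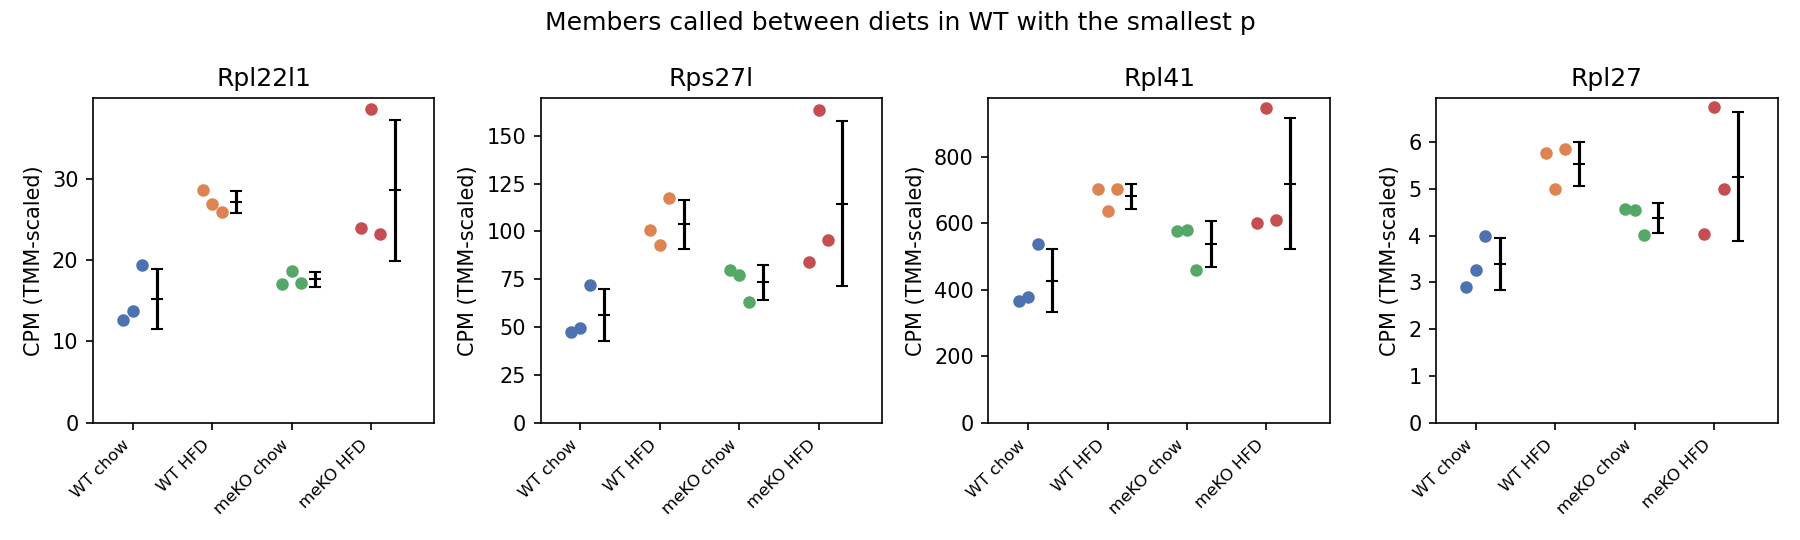
CPM of Rpl22l1, Rps27l, Rpl41 and Rpl27 in each library (points, in replicate order), with the mean and SD of each group of 3 libraries in black. In WT the HFD libraries lie above all chow libraries for each gene, and in meKO HFD replicate 2 is the highest point of its group.

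Of the members chosen as landmarks of the ribosome or for roles outside translation, Rps3 passed in WT, as given above. The 5 below did not pass. Rplp0, the base of the ribosomal stalk, was at 332, 341 and 473 CPM in WT chow and at 501, 438 and 503 CPM in WT HFD (log2 fold change 0.33 ± 0.14, edgeR adjusted p = 0.0934). Rps6, the substrate of S6 kinase, had a log2 fold change of 0.26 ± 0.17 (edgeR adjusted p = 0.249). Rpl5 and Rpl11, which bind Mdm2 together, were at 0.29 ± 0.19 and 0.59 ± 0.23 (edgeR adjusted p = 0.268 and 0.0797), and Rpsa, also known as a laminin receptor, was at 0.51 ± 0.18 (0.0629). The WT chow and WT HFD ranges overlapped for each of these 5 genes.

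The 11 calls rested on few libraries, as did the calls over all genes. Without WT chow replicate 1, WT chow replicate 2, WT HFD replicate 1 or WT HFD replicate 3, 0 members passed. Of all 12339 genes, 45, 98, 185 and 39 rose in these fits, in the same order, against 1172 with every library. Without WT chow replicate 3, 68 members rose, where 18.9% of all genes rose. Without WT HFD replicate 2, 6 members rose. The meKO groups enter through the shared estimate of spread. There, 29 members rose without meKO HFD replicate 2, and 6 without meKO chow replicate 1 or meKO chow replicate 2. Over all genes, 757, 1433, 992 and 1027 rose in these fits, in the same order. With the length and GC correction 0 members passed (5.73% of all genes rose), 15 had an unadjusted p under 0.05 (33.1% of all genes did), and the member median was 0.11. DESeq2 called 25 members higher, where it called 13.7% of all genes higher.

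In meKO mice 0 members passed between diets, where 0.105% of all genes did. At an unadjusted p under 0.05 there were 20 members with edgeR, against 15.9% of all genes, and DESeq2 called 2 of them higher at an adjusted p under 0.05, Rpl22l1 and Rpl34, against 1.01% of all genes. The member median was 0.36 against -0.01 over all genes, with 73 of 79 above 0. In 31 members the meKO HFD libraries lay above all meKO chow libraries, which held for 10.3% of all genes.

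Rpl22l1 again had the smallest p, at 17.0, 18.7 and 17.2 CPM in meKO chow and 23.9, 38.6 and 23.1 CPM in meKO HFD (log2 fold change 0.69 ± 0.19, edgeR adjusted p = 0.172). The groups did not overlap, and replicate 2 stood highest. Rpl35a, a large subunit gene, was at 12.4, 13.0 and 11.0 CPM on chow and 18.3, 27.1 and 15.4 CPM on HFD (0.74 ± 0.22, edgeR adjusted p = 0.194). Rpl34, of the large subunit too, was at 7.15, 7.33 and 7.26 CPM in meKO chow and 13.5, 21.1 and 13.5 CPM in meKO HFD (1.14 ± 0.34, edgeR adjusted p = 0.195). Without meKO HFD replicate 2 the member median fell to 0.15, and with the length and GC correction it was 0.16.

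The WT and meKO diet contrasts share no libraries, and their difference was tested as the genotype by diet interaction. No member passed that test, with 0.0162% of all genes called by edgeR, and 0 members had an unadjusted p under 0.05, against 6.13% of all genes; DESeq2 (0.122% of all genes) and limma-voom (0.0162%) also called 0 members. The smallest p belonged to Rpl27, whose HFD response was lower in meKO by -0.45 ± 0.28 on the log2 scale (edgeR adjusted p = 0.812), and then to Rps9, at -0.31 ± 0.23 (0.815). The member median was -0.12, and with the length and GC correction it was 0.05.

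**Figure D3:**
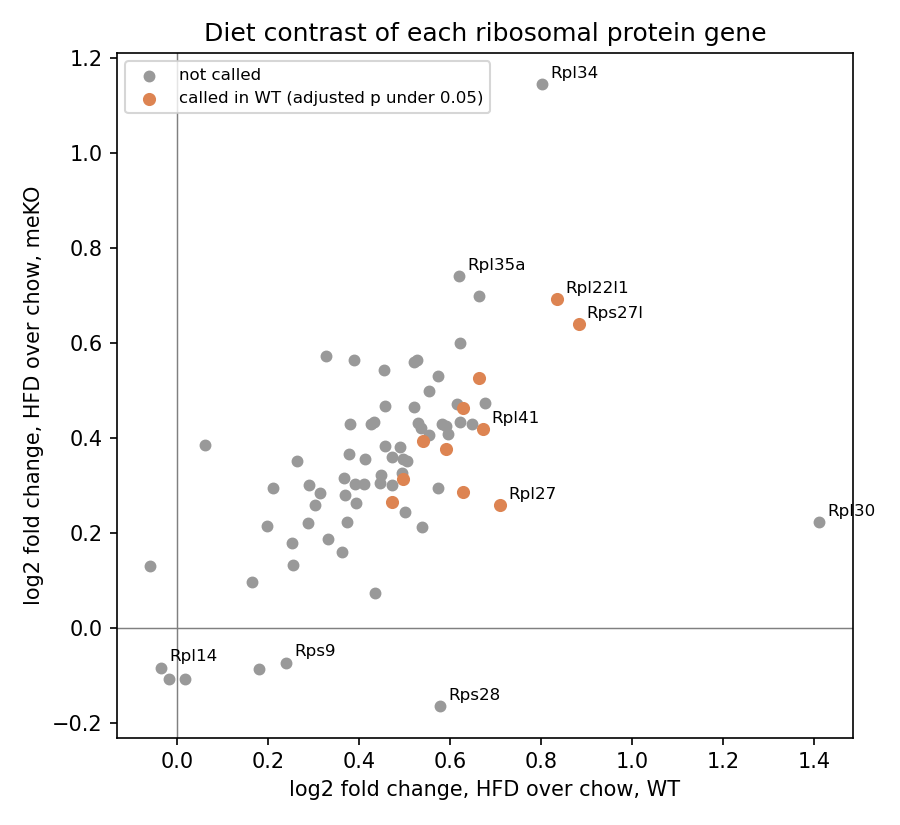
Log2 fold change of each of the 79 ribosomal protein genes, HFD over chow, in WT (x axis) and in meKO (y axis), with the 11 genes that passed the edgeR test in WT in orange. Most genes lie in the upper right part; Rpl30 is far to the right, Rpl34 is at the top, and Rps9, Rpl14 and Rps28 are among the genes below 0 in meKO.

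Averaged over both genotypes, a contrast added after the data were seen, the diet difference rests on all 12 libraries. By edgeR 43 of 79 members rose and 0 fell, 17 of the small and 26 of the large subunit, where 14.9% of all genes rose and 15.3% fell. The genes with the smallest p were Rpl22l1 (0.76), Rps27l (0.76), Rpl35a (0.68) and Rpl41 (0.54), with edgeR adjusted p from 0.00467 to 0.0116. The count was 12 or 15 when WT chow replicate 1 or 2 was left out, 19 or 15 for WT HFD replicates 1 or 3, 15 for the third meKO chow library, 17 for the second meKO HFD library, and 67 without WT chow replicate 3. Over all genes, 989, 1102, 1360, 954, 982, 1077 and 2586 rose in these fits, in the same order, against 1835 with every library. Without WT chow replicates 1 and 2 together, which leaves replicate 3 alone in that group, the member median was 0.21.

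With the length and GC correction, 8 of the 78 members with a transcript length rose and 3 fell, where 11.9% and 12.9% of all genes did, and 8 of these 11 had also passed before it. Rpl10a, Rpl35, Rpl41, Rpl8, Rps20, Rps27l, Rps3 and Rpsa rose and Rpl14 and Rps12 were among those that fell. The lengths used were 3706 bases for Rps20, 1908 for Rps3 and 1599 for Rpsa, against a member median of 709. The correction thus treated these genes as longer than most members. In WT chow replicate 1, Rps20 was at -0.62 before it and at -0.67 after it. Calls of these genes with the correction depend on the lengths, and whether the lengths hold in these cells was not tested. Rps3 was at 0.28 and Rps27l at 0.27 after the correction (edgeR adjusted p = 0.0448 and 0.0149), while Rpl22l1 was at 0.24 and did not pass (0.0578). Rpl14 was at -0.29 (edgeR adjusted p = 0.0190).

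Read relative to the family, by scaling each library to the geometric mean of its members, the same averaged diet contrast called 7 members by edgeR. Of these, 3 were higher and 4 lower, where 94 of all 12339 genes were called higher and 5759 lower. The adjustment is over all genes, so it does not give the share of false calls among the members. Rpl34 (0.61), Rpl22l1 (0.34) and Rps27l (0.34) were higher on HFD, and Rpl14 (-0.46), Rps13 (-0.46) and Rps9 (-0.32) were among those lower, with edgeR adjusted p from 0.0206 to 0.0425. This scaling moves the median of all genes to -0.45, so only differences between members can be read from it. Rpl14 was the steadiest member in the unadjusted table, with 133 CPM in its highest library and 97.2 CPM in its lowest, a ratio of 1.37; the median ratio over members was 2.42.

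Paralog pairs were compared as ratios within each library, in which the library's scaling cancels. Rpl22l1 over Rpl22 was 0.0874 ± 0.00324 in WT chow, 0.111 ± 0.0120 in WT HFD, 0.0868 ± 0.00636 in meKO chow and 0.112 ± 0.00233 in meKO HFD (SD, n = 3 each). The ratio was higher on HFD in both genotypes without overlap of the libraries, the highest chow values being 0.0900 and 0.0909 and the lowest HFD values 0.0977 and 0.109. The ratios are given as a description, with no test. Rps27l was more abundant than its parent, with a ratio to Rps27 of 8.23 ± 1.79 in WT chow, 10.8 ± 1.68 in WT HFD, 9.82 ± 0.742 in meKO chow and 11.0 ± 0.887 in meKO HFD, and these ranges overlapped. Rps4l over Rps4x varied widely between libraries, from 0.0621 to 0.121, with group means from 0.0806 to 0.110. Rpl7l1 over Rpl7 had group means from 0.178 to 0.195. Rpl32l over Rpl32 was 0.0825 to 0.0840 in WT chow and lower, without overlap, at 0.0781 to 0.0817 in WT HFD, while its meKO ranges overlapped.

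Between genotypes, 0 members passed by edgeR on either diet, where 0.081% of all genes passed on chow and 0.081% on HFD. At an unadjusted p under 0.05 there was 1 member on each diet, Rpl3 both times, against 19.8% and 4.56% of all genes. The member medians were 0.19 on chow and 0.08 on HFD, against -0.00 and 0.02 over all genes, and 74 and 70 of the 79 members were above 0. With the length and GC correction the medians were -0.06 and 0.01. Single libraries moved them: on HFD the median was -0.11 without meKO HFD replicate 2, with 15 of 79 members above 0, and on chow it was 0.11 and 0.06 without WT chow replicates 1 and 2 and 0.47 without WT chow replicate 3. The 2 contrasts share no libraries with each other but use the same 12 as the diet contrasts.

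Rpl3, a large subunit protein beside the peptidyl transferase centre, had the smallest p on both diets. It was at 16.1, 16.4 and 23.3 CPM in WT chow and at 20.0, 42.3 and 46.1 CPM in meKO chow (log2 fold change 0.96 ± 0.25, edgeR adjusted p = 0.103). On HFD it was at 25.7, 26.0 and 21.3 CPM in the WT libraries and 52.2, 61.1 and 46.9 CPM in the meKO libraries (1.13 ± 0.25, edgeR adjusted p = 0.214). The genotypes overlapped on chow through meKO chow replicate 1 and did not overlap on HFD. DESeq2 called Rpl3 higher in meKO on both diets (adjusted p = 0.0109 and 0.00471), as the sole member, where it called 1.22% and 0.3% of all genes higher.

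Averaged over diets, Rpl3 was the 1 member that passed by edgeR (log2 fold change 1.05 ± 0.18, adjusted p = 0.0344), where 0.0891% of all genes were higher in meKO. It was called in 11 of 25 settings. With the length and GC correction it was at 0.95 (edgeR adjusted p = 0.0761). By the count of shared sequence windows described below, 85.6% of the Rpl3 windows also occur in transcripts of other genes (26 genes). Whether reads from those genes entered the Rpl3 counts was not tested, so its values are uncertain as levels of the gene. Rpl31, second on chow, was at 0.42 ± 0.21 (edgeR adjusted p = 0.270). Rpl27 was the 1 member whose meKO chow libraries all lay above the WT chow libraries, against 8.87% of all genes.

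Rps28, a small subunit protein near the messenger RNA exit, had lower values in meKO on HFD. It was at 29.7, 30.2 and 31.2 CPM in WT HFD and at 18.3, 8.89 and 18.1 CPM in meKO HFD, without overlap (log2 fold change -1.01 ± 0.58, edgeR adjusted p = 0.999). Of all genes, 4.85% were lower without overlap in this comparison and 5.45% higher, and among members these were Rps28 and Rpl3. On chow Rps28 varied as widely within a group as between them, at 10.9, 16.5 and 33.6 CPM in WT and 28.1, 17.6 and 4.87 CPM in meKO.

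After each library's member median was subtracted, the SD of a member's log2 CPM over the 12 libraries had a median of 0.123. Rps3a1 (0.0452), Rps25 (0.0543) and Rpl23 (0.0566) tracked the family most closely. Rpl30 (1.03), Rps28 (0.802) and Rpl3 (0.571) departed from it most, followed by Rpl34 (0.418).

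Rpl30, a large subunit protein that binds kink-turn RNA, varied within groups. It was at 3.37, 3.85 and 16.5 CPM in WT chow and at 29.6, 4.58 and 28.4 CPM in the WT HFD libraries. The meKO libraries were at 3.97, 15.5 and 3.70 CPM on chow and at 5.55, 5.91 and 15.9 CPM on HFD. The libraries thus formed a low range up to 5.91 CPM, a middle range from 15.5 to 16.5 CPM and a high range with 2 WT HFD libraries, and every group held libraries from 2 of these ranges. Its highest library was 8.81 times its lowest, the widest ratio of any member. The diet contrast in WT was 1.41 ± 0.93 (edgeR adjusted p = 0.289).

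**Figure D4:**
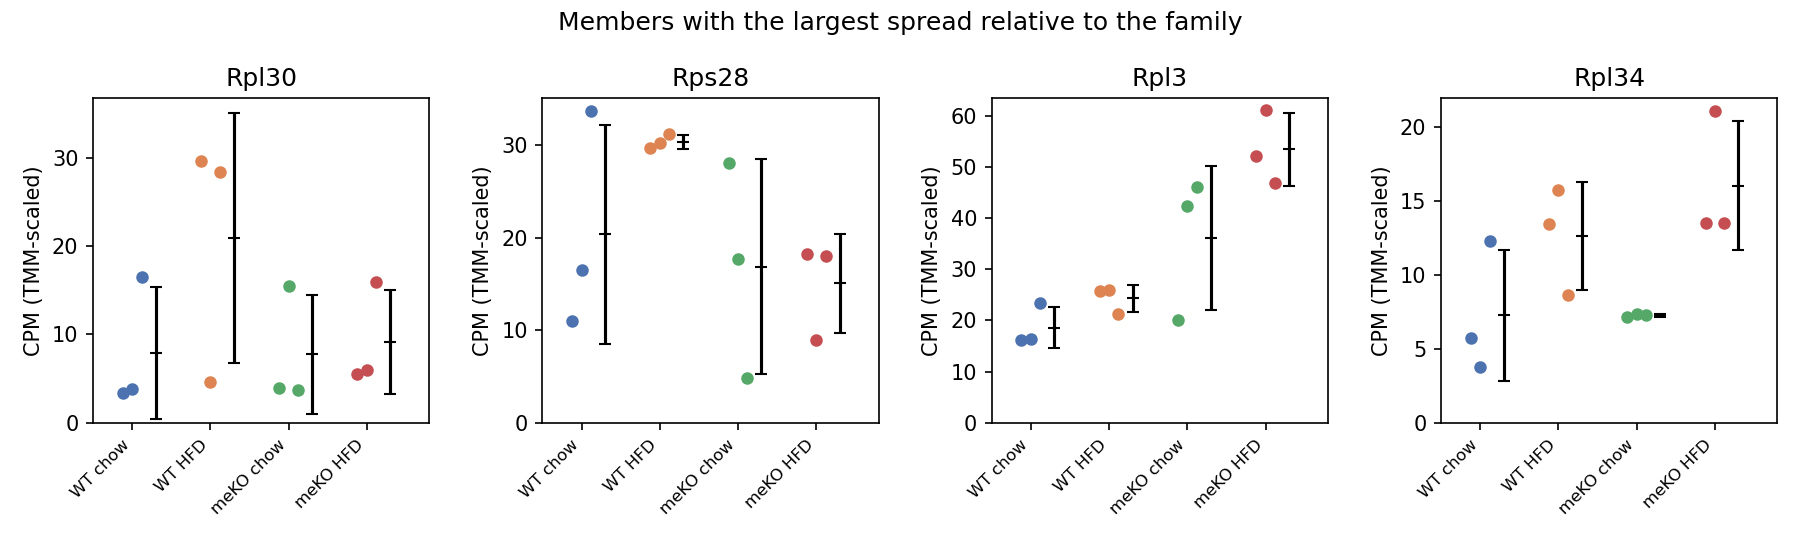
CPM of Rpl30, Rps28, Rpl3 and Rpl34 in each library (points, in replicate order), with the mean and SD of each group of 3 libraries in black. Rpl30 splits within every group, Rps28 is narrow in WT HFD alone, and Rpl3 is highest in meKO HFD.

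Levels between members were compared per kilobase of transcript. Rpl41 (1353 CPM per kb), Rps14 (853) and Rps15 (831) were highest, and Rpl13 (0.776), Rpl28 (2.80) and Rps13 (4.26) lowest; 15 members had a mean under 10 CPM. Rpl13 had only 7 counts in its lowest library. A spread this wide among proteins that occur once per ribosome was described beside the sequence each gene shares with others, because the way reads with several matching places were counted is not given in the sources used here.

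For each member the share of 50-base windows of its transcript that also occur in a transcript of another annotated gene was counted. It ran from 0% to 98.6% in Rps27. Levels per kb were lower where more was shared: the median was 174 CPM per kb in the 11 members under 30%, 71.4 in the 39 members from 30 to 70%, and 26.1 in the 28 members over 70% (Spearman's rho -0.38, n = 78 genes that share libraries and depth). The median diet contrast in WT differed little between these 3 sets, at 0.49, 0.47 and 0.44.

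**Figure D5:**
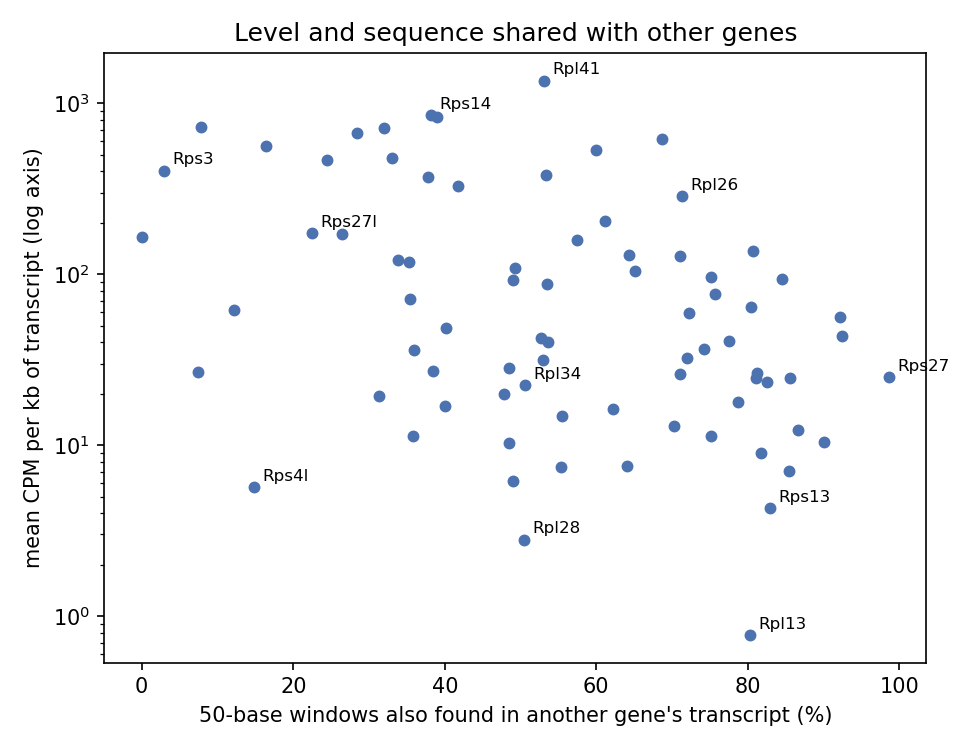
Mean level over 12 libraries (CPM per kb of transcript, log axis) of the 78 members with a transcript length, against the percent of their 50-base windows found in a transcript of another gene. Rpl41 is highest at 1353 CPM per kb and Rpl13 lowest at 0.776, and members over 70% shared have a median of 26.1.

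The table also lists 23 genes named as ribosomal protein pseudogenes, and several held more counts than the parent. Rpl13-ps6 had a mean of 62.3 CPM, 103 times that of Rpl13 (0.605 CPM). The ratio of pseudogenes to parent was 29.4 for Rpl17, 17.8 for Rpl31 and for Rpl34, 13.8 for Rps27a, 6.73 for Rpl36 and 5.55 for Rps13. Rps27rt, a retrogene copy, had a mean of 320 CPM against 8.64 CPM for Rps27. Values of these parents, and ratios such as Rps27l over Rps27, are therefore uncertain as levels of the gene. Between diets in WT the pseudogenes had a median of 0.50, and 3 of 23 were called higher by edgeR (Rps27a-ps3, Rpl34-ps1 and Rpl31-ps9), near the 9.5% of all genes. With the correction 1 was called, Rps27a-ps3; most pseudogenes have no transcript length and so get no offset of their own.

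Members with and without a tract found near the annotated start had similar medians. A member without a match may still carry a tract at another start, so this split cannot separate TOP messenger RNAs from others. In WT the diet contrast had a median of 0.46 in the 25 members with a tract and 0.45 in the 33 without one, with 3 and 5 called. In meKO the medians were 0.36 and 0.30, with 0 called. Among the printed windows, Rpl22l1 and Rpl34 hold a tract and Rps27l holds none, and these were the 3 genes higher on HFD relative to the family. Across the 78 with a length, Spearman's rho of the WT diet contrast with length was -0.45, and 0.15 after the correction.

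Ribosomal proteins under other symbols lay close to the members. Of 5 genes 1 rose between diets in WT by edgeR, Rpl36al (0.66 ± 0.18), and the median was 0.48. Rack1, a scaffold on the small subunit, was at 0.40 ± 0.16, and Fau, a fusion with a ubiquitin-like protein, was at 0.36 ± 0.21; neither passed. With the length and GC correction 0 of 5 passed and the median was 0.15.

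Other genes of translation and ribosome production were taken from lists chosen by function, and their calls between diets in WT can be read against the 9.5% of all genes that rose and the 11.8% that fell. Of 6 elongation factors 1 rose by edgeR, Eif5a (0.46 ± 0.12), and of 13 other TOP messenger RNAs Eif3k rose (0.44 ± 0.14) and Pabpc1, the poly(A) binding protein, fell (-0.66 ± 0.17). Snhg8 (0.71 ± 0.22) rose among 9 host genes of small nucleolar RNAs, and Polr1h (0.59 ± 0.16) among 15 genes of RNA polymerase I. With the correction Pabpc1 still fell (-0.63), Eif5a, Eif3k, Snhg8 and Polr1h did not pass, and Nap1l1 (-0.43) of the TOP list and Polr1f (0.40) of the polymerase list did; the last 2 were named after their values were seen.

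Ribosome assembly factors build the subunits in the nucleolus and cytoplasm. Of 46, 8 rose and 0 fell in WT by edgeR, where 9.5% of all genes rose and 11.8% fell. The median was 0.17, and the list was led by Nhp2 (0.75 ± 0.20), of the pseudouridylation particles, and Ebna1bp2 (0.63 ± 0.17), of the large subunit pathway. With the correction the median was again 0.17, and 5 rose and 1 fell, the box H/ACA protein Gar1 (-0.67). Nhp2, Ebna1bp2 and Imp4 passed both with and without it, and Bop1 and Nmd3 passed with it alone; Gar1, Imp4, Bop1 and Nmd3 were named after their values were seen. Averaged over genotypes 17 of 46 rose, where 14.9% of all genes did, and with the correction 14 rose, where 11.9% did; 0 fell in both.

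In the signalling list that leads from growth signals to ribosome production, 2 of 14 genes rose and 6 fell in WT by edgeR, where 9.5% of all genes rose and 11.8% fell. Eif4ebp1 (0.63 ± 0.15), a repressor of translation initiation, and Rheb (0.53 ± 0.15), the GTPase that activates mTOR complex 1, rose. Eif4ebp2 (-0.78 ± 0.21), Mtor (-0.60 ± 0.16), Tsc2, Rps6kb2, Larp1, which binds TOP tracts, and Tsc1 fell. With the correction Eif4ebp1 (0.52), Rheb (0.35) and Eif4ebp2 (-0.93) still passed, and Mtor (-0.13), Tsc2, Rps6kb2, Larp1 and Tsc1 did not. In meKO diet and in both genotype contrasts, 0 genes of these lists passed by edgeR.

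Markers of other cells that a lavage can hold differed between groups too. Summed over the 3 of 6 neutrophil markers listed here (Ly6g, Mpo and Elane were not listed), the level was 8.52 to 14.9 CPM in WT chow and 17.7 to 19.3 CPM in WT HFD. In the meKO mice it was 16.0 to 19.9 CPM on chow and 17.8 to 31.9 CPM on HFD. S100a9, a calcium-binding protein abundant in neutrophils, was higher in meKO by edgeR on chow (3.13 ± 0.36, adjusted p = 0.00348) and on HFD (2.15 ± 0.32, 0.0229), at no more than 4.69 CPM in any library. S100a8, the most abundant of the 3 at 7.81 to 26.4 CPM, was at 0.42 ± 0.24 on chow and 0.23 ± 0.24 on HFD. Cxcr2, at no more than 1.01 CPM, was at 1.82 ± 0.34 and 1.12 ± 0.34. Neither of these 2 passed on either diet (edgeR adjusted p from 0.0726 to 0.999). The 4 mesothelial markers summed to 3.97 to 5.55 CPM in WT chow and 8.06 to 10.1 CPM in WT HFD, and to 4.35 to 6.89 and 7.87 to 17.5 CPM in meKO. The 4 B cell markers listed here summed to 37.0 to 59.4 and 16.3 to 33.6 CPM in WT, and to 26.2 to 56.2 and 16.7 to 34.9 CPM in meKO, chow first. Their part in the differences between diets and genotypes was not tested.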

How the data were processed

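The values are raw counts per Entrez gene in 12 libraries, as deposited by the authors; the submitters' processing notes name mm10 and DESeq2, and the aligner, counter and strand setting are not given in the sources used here. Columns were matched to samples by title, and replicates were numbered in sample order. Members and gene lists were chosen with earlier results of these data known. The tests used edgeR 4.0.16 under R 4.3.3 (TMM, filterByExpr, robust quasi-likelihood F test, 4 group means, 12 libraries), two-sided, with Benjamini-Hochberg adjustment over 12339 genes. Log2 deviations used CPM plus 0.5. Transcript lengths were those of the shortest CCDS transcript of GENCODE M21 (GRCm38), because longer definitions gave some genes implausible lengths. Where a gene had no CCDS transcript, the shortest RefSeq-matched one was used, then protein-coding, then any. These steps gave a length for 93.5% of genes. Long values remained among the members, up to 3706 bases for Rps20. The correction was a natural spline with 5 degrees of freedom on log length and on GC, per library, given to edgeR as offsets, and genes without a length kept no offset. Named genes were, per contrast, up to 4 called members with the smallest p in each direction, or 2 with no call, plus landmark genes, paralogs, and the extremes of level and spread; Rpl34, Rpl35 and the members called in the added contrasts were chosen after their values were seen. Alternatives used DESeq2 1.42.0, limma 3.58.1, other scalings and filters, and each library left out. Replicates differed beyond counting noise (chi-square per degree of freedom at least 16.9). The test was checked on simulated counts. Some genes that the naming rule covers are not reported here.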

Additional observations from a re-analysis of the deposited data

How the results depend on the processing

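No paired analysis was possible because replicate numbers only follow the order of the samples. Members called between diets in WT, 11 as reported, were 7 with library totals, 0 scaled by the members, 25 with DESeq2, 70 with limma-voom and library quality weights, and 0 with the length and GC correction, whether or not the members entered its smooth. All these calls were higher. Over all genes, 1172, 857, 26, 1690 and 2961 rose in the first 5 settings, in this order, and 707 and 708 with the 2 corrections. Averaged over genotypes, the 43 calls became 7, 66, 12 and 13 when scaled by the members, with quality weights, with the correction (Rpl6l, which has no length, included), and with its smooth fitted without the members. The 43 and the 66 were all higher, and the 7, 12 and 13 were 3 higher and 4 lower, 9 and 3, and 10 and 3. Over all genes, starting with the fit as reported, 1835, 94, 3038, 1471 and 1471 rose. In the same order, 1886, 5759, 3260, 1586 and 1585 fell. The single call of the averaged genotype contrast became 0 when scaled by the members, with limma-voom and with both corrections, and 7 with quality weights. Quality weights called 3835 of all genes there, against 21 as reported. On chow the genotype count of 0 became 1 with DESeq2 and 32 with quality weights, where 591 and 4047 of all genes were called. On HFD it became 1 with DESeq2, with quality weights and with only the groups compared, where 53, 128 and 34 of all genes were called. As reported, 10 of all genes passed on each diet. Diet in meKO went from 0 to 2 with DESeq2 and 1 with quality weights, while the calls over all genes went from 13 to 227 and 398. The causes were not tested. With each library left out in turn, the counts ran from 0 to 19 (genotype on chow), 0 to 1 (genotype on HFD), 0 to 68 (diet in WT), 12 to 67 (diet averaged) and 0 to 5 (genotype averaged), and stayed at 0 for diet in meKO and the interaction. The counts of 19, 68, 67 and 5 came without WT chow replicate 3, where 2543, 4921, 5326 and 1400 of all genes were called. Without WT chow replicates 1 and 2, chosen after seeing the data, the member median was 0.06 for diet in WT and -0.19 for genotype on chow. Rpl31 on chow reversed to -0.028 and the Rps9 interaction to 0.0085 in that fit, which leaves replicate 3 alone in WT chow. Scaling by the members moved the median of all genes in WT to -0.56. Few counts limit Rpl13.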
